A study of Homo sapiens with 4 samples.

Results

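The liver plasma protein genes examined here were ALB, AFP, FGA, FGB, FGG, APOB, APOH, TTR, SERPINA1 and AMBP, 10 of the 19689 protein-coding genes of the GENCODE annotation of hg38. They were named by their role in plasma, by a rule that uses no measured value. The members, the gene lists and the motifs were, however, chosen with earlier results of these data known. Chromatin accessibility was assayed by ATAC-seq, which cuts and tags open DNA with a transposase. C4-2B, a human prostate adenocarcinoma cell line, was compared with C4-2BER, its enzalutamide-resistant and neuroendocrine-like derivative, which was obtained by continuous exposure to the androgen receptor inhibitor enzalutamide. The reads of the 2 libraries of a line had been joined ahead of peak calling, which leaves 1 list per line, with 149676 peaks for C4-2B and 118728 for C4-2BER. No spread between replicates can be computed from merged lists, no test between the lines was possible, and every interval given, at the 95% level, covers counting error only. Wherever a pair of values is given below, C4-2B comes first and C4-2BER second, and every ratio is C4-2BER over C4-2B after scaling to depth. C4-2BER is also 1 derived line, so that resistance and the history of this line cannot be told apart.

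The proteins encoded by these genes are made mainly by hepatocytes and secreted into blood. In the liver their promoters and enhancers are classic targets of HNF1 and HNF4, of forkhead factors of the FOXA group, which also open chromatin in prostate luminal cells, and of C/EBP factors. HNF1 proteins bind as dimers to a pair of inverted sites, and HNF4 binds direct repeats as a homodimeric nuclear receptor. The comparison asked whether such hepatic target loci opened in the resistant line.

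For each gene all peaks in the gene body and 50 kb either side were taken. ALB and AFP lie next to each other, as do FGB, FGA and FGG, so that the 10 windows formed 7 loci covering 970 kb, which held 72 and 53 peaks. The background levels of the lists correspond to depths of about 30200000 and 25200000 reads, and the median peak summit held 29 and 23 reads. At this depth the lowest summits listed held 8 and 7 reads, and a site below that is not in the list rather than shown to be closed. Promoter peaks did not separate the labelled cell types: 9 of 9 prostate luminal markers and 9 of 9 neuroendocrine markers had one in both lists.

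The hepatic motif letters of the promoters are shown first, because the promoters that carry them had no peak in either line. RefSeq promoters of the GRCh38.p14 build were given for 8 of the 10 members. The 2 without one were APOB and TTR, which had a peak within 2 kb of the canonical transcription start site in both lists. Their promoter letters were not searched, so what follows does not cover them. The HNF1 motif was searched as the inverted sites GTTAAT and ATTAAC separated by 1 base, on both strands. With at most 1 mismatch, 0 of the 8 members had a match in the 250 bases before to the 50 bases after the transcription start site (TSS), and 0.145% of 35116 promoters had one. With at most 2 mismatches, a setting chosen after the data were seen, 5 of the 8 members had a match, against 1.31% of all promoters. These were ALB, AFP, FGA, FGB and APOH, while FGG, SERPINA1 and AMBP had none. The 5 with a match are all in the list of HNF1 target genes used below, which does not hold every member. This count therefore describes the genes chosen and is not a result of the cell lines.

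The 150 bases before the TSS of these 5 genes are printed 5′ to 3′ on the coding strand, with motif matches in capitals. They show where the HNF1-like letters stand in promoters without a peak in either line.
ALB, chr4:73404137-73404286, plus strand: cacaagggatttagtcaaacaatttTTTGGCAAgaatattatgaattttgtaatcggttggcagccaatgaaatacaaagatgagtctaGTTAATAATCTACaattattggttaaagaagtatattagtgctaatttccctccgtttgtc
AFP, chr4:73436071-73436220, plus strand: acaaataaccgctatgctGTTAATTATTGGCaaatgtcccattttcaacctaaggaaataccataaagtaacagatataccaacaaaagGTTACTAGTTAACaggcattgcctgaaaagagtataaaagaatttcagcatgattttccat
FGA, chr4:154590743-154590892, minus strand: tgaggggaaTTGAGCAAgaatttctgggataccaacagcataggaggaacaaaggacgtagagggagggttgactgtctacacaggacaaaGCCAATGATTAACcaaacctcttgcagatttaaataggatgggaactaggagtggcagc
FGB, chr4:154562861-154563010, plus strand: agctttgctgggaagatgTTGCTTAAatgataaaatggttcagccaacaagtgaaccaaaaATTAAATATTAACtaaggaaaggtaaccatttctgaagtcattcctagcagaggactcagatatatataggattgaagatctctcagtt
APOH, chr17:66229416-66229565, minus strand: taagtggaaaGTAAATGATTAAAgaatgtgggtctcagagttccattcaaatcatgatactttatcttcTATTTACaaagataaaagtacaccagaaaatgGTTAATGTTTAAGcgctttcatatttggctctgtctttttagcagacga

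In ALB the HNF1-like match lay between bases -61 and -49, and the other capitals mark a C/EBP match (TTGCNNAA). AFP held matches from -132 to -120 and from -61 to -49. In FGA the match ran from -59 to -47, downstream of a C/EBP match. FGB held it from -89 to -77, again behind a C/EBP match, and APOH from -140 to -128 and from -49 to -37, with a forkhead match (TATTTAC) between them. Within these 5 promoters, 0 were covered by a C4-2B peak and 0 by a C4-2BER peak. The HNF4 letters CAAAGTCCA were in none of the 8 promoters and in 0.384% of all promoters.

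To understand how open the promoters were, peaks within 2 kb of any protein-coding TSS were counted. In C4-2B 4 members had a promoter peak, APOB, APOH, TTR and SERPINA1, whereas 80.6% of all protein-coding genes had one. In the resistant line 3 had one, APOB, APOH and TTR, against 81.1% of all genes. ALB, AFP, FGA, FGB, FGG and AMBP had no promoter peak in either list. SERPINA1 was the only member with a promoter peak in C4-2B only, a class of 2.83% of all genes, and 0 members had one in C4-2BER only, against 3.39% of all genes. No promoter peak of the group was therefore gained in the resistant line.

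**Figure D1:**
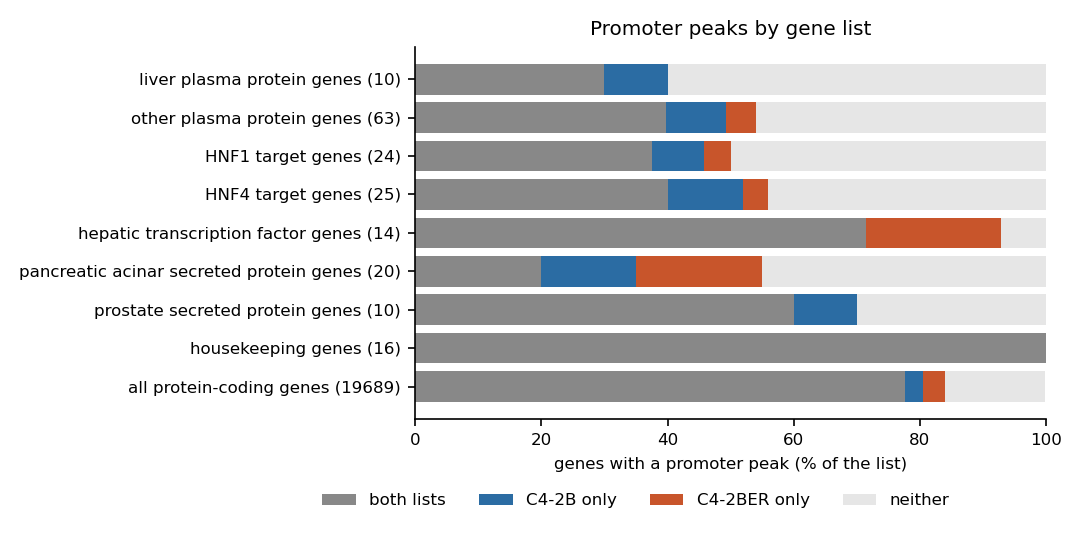
Share of each gene list (%, horizontal axis) with a promoter peak in both lists, in C4-2B only, in C4-2BER only or in neither; the number of genes is given in brackets. Of the liver plasma protein genes 60% had no promoter peak in either line, whereas 16% of all protein-coding genes had none.

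Counted over promoter and distal sites together, the windows held more C4-2B-only than C4-2BER-only peaks. An overlap of 1 bp or more between the lists made a peak shared. By this measure 45 of the 72 peaks were shared in the parental line, which is 62.5% (Wilson interval 51.0 to 72.8) against 62.3% of its whole list. In the resistant line it was 44 of the 53, which is 83.0% (70.8 to 90.8) against 79.2%. The remaining peaks, 27 and 9, were found in the respective line only, and those of C4-2BER are called gained. All 10 windows held at least 1 C4-2B-only peak, as did 91.0% of the windows of all genes, and 9 held at least 1 C4-2BER-only peak, against 74.5% of all genes. C4-2B-only peaks outnumbered the gained ones in 8 of the 10 windows, against 69.3% of all genes. APOH was the 1 member with the opposite order, against 15.9%, and AFP had equal numbers. These shares are close to those of the whole lists. When the 50000 strongest peaks of each list were compared, 11 and 10 peaks were line-only, so that the excess in C4-2B was nearly gone. When only peaks with a −log10 q (the significance given by the peak caller) of 10 or more were kept in each list, 20 and 0 were line-only. The 20 include peaks whose C4-2BER partner fell below the cut. Only 10 C4-2B-only peaks of the full lists passed it. The line-only shares of the whole lists at these cuts are not given here.

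The line-only peaks differed in height. Those of C4-2B had a median of 17 reads at the summit and reached 116, and those of C4-2BER a median of 12 reads and a maximum of 16. Of the former, 10 of 27 had a −log10 q of 10 or more, against 37.5% of such peaks in the list. Of the latter it was 0 of 9, against 18.9%. The sites gained at these loci all held few reads, while several sites found in C4-2B only were among its higher peaks. For C4-2B the share past this cut was close to that of its list, and so is not particular to these genes. The median heights of line-only peaks in the whole lists are not given here. With 9 gained peaks the difference from the background share was not tested.

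**Figure D2:**
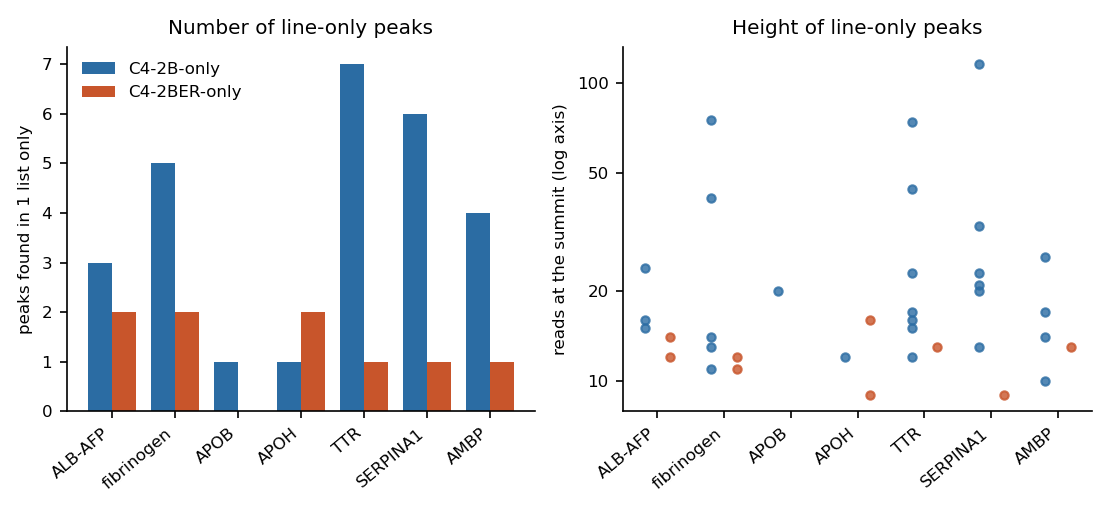
Left, number of peaks found in 1 list only at each locus; right, reads at the summit of each such peak (log axis), 1 point per peak. C4-2B-only peaks (blue) reached 116 reads at SERPINA1, 75 at the fibrinogen locus and 74 at TTR, and the C4-2BER-only peaks (orange) held 9 to 16 reads.

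At the shared sites reads were compared after division by depth. Each C4-2B summit was paired with the nearest C4-2BER summit within 200 bp. The median ratio over the 45 shared summits was 0.897, with quartiles of 0.581 and 1.23, and over all 91158 shared summits it was 0.906, with quartiles of 0.642 and 1.14. Over the 71552 distal ones of the list, outside promoters, it was 0.830, with quartiles of 0.598 and 1.10. A ratio of at most 0.5 was found at 5 member sites, against 13.6% of all shared summits, and a ratio of at least 2 at 4 member sites, against 2.68%. The counting interval of the ratio lay below 1 at 9 member sites, against 21.2% of all, and above 1 at 5, against 5.38%. The shared sites of the liver genes therefore had a median close to that of the whole lists, and the AMBP locus held 4 of the 5 that were higher beyond counting error. Of these 4, 2 were summits within 1 C4-2BER peak.

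**Figure D3:**
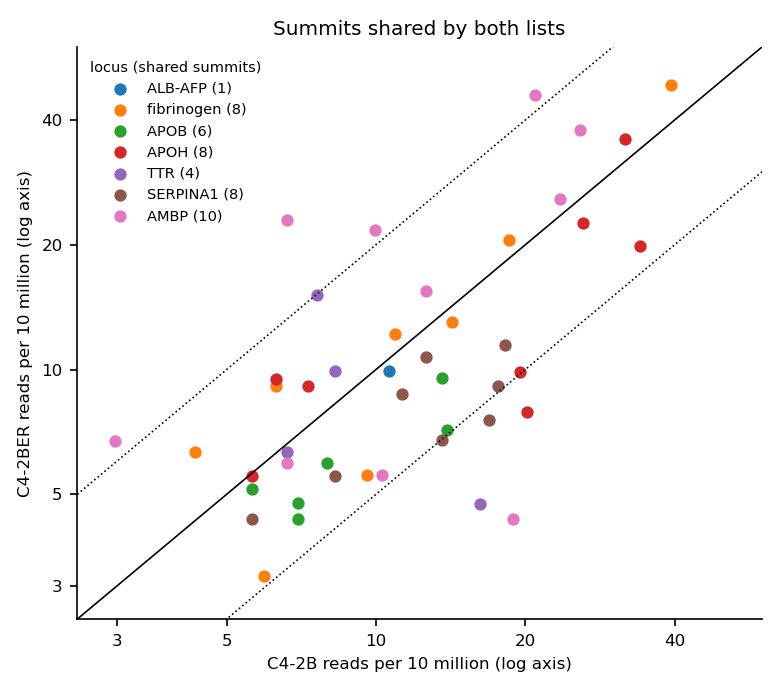
Depth-scaled reads at the 45 shared summits in C4-2B (horizontal, log axis) and C4-2BER (vertical, log axis), coloured by locus; the solid line marks equal values and the dotted lines 0.5 and 2 times. All 8 SERPINA1 sites lie below the line of equality, and the 4 sites at 2 times or above belong to the AMBP locus.

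ALB encodes serum albumin, the main protein of blood plasma, and AFP encodes alpha-fetoprotein, its fetal counterpart. Their joint window of 159 kb held the fewest sites, 4 and 3 peaks, and 1 site was shared. It lay in an intron of AFP, 10.3 kb downstream of the canonical TSS, and held 32 and 25 reads, a ratio of 0.935 (0.531 to 1.63). Both lines thus had few open sites here, and the shared one did not differ beyond counting error. The peaks found in C4-2B only held 24, 15 and 16 reads. Of the gained ones, a site in an intron of AFP held 14 reads at chr4:73446016-73446235, and a site in AFM held 12 reads. AFM, a neighbour in the albumin family, encodes afamin.

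The C4-2B-only peak 28.7 kb upstream of ALB, chr4:73375417-73375753, was at the 50.1 percentile of its list, and C4-2BER had no overlapping peak. It is shown because it was the 1 line-only peak of all the windows with an androgen response element, searched as GNACA and TGTNC separated by 3 bases, which stands in capitals to the right of a C/EBP match.
ALB upstream site, chr4:73375510-73375710, plus strand: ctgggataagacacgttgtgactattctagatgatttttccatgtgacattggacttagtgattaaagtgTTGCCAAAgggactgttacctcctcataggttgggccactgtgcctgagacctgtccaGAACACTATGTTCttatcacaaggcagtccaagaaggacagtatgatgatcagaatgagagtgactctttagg

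Such elements stood at 2.84% of all peaks found in C4-2B only and at 0.239% of those gained in the resistant line. The 1 among 27 here, or 3.70%, was near the share of the list.

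FGA, FGB and FGG encode the alpha, beta and gamma chains of fibrinogen, the precursor of the fibrin clot. Their locus of 150 kb had 13 and 10 peaks, and 8 of each list were shared. The highest of them, 12.6 kb upstream of FGB, belonged to the promoter of the splicing factor gene PLRG1 and held 119 and 122 reads, a ratio of 1.23 (0.945 to 1.59). LRAT, which encodes the retinol-esterifying enzyme lecithin retinol acyltransferase, lies on the other side, and its promoter peak held 56 and 52 reads. These neighbours gave the 2 highest shared peaks of the locus, and both ratios had intervals that included 1. The shared site nearest to a fibrinogen gene start lay 3.4 kb upstream of FGB and held 33 and 31 reads, a ratio of 1.12 (0.666 to 1.89).

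Within FGB itself 2 peaks were found in C4-2B only. The peak chr4:154569511-154570009, with its summit in exon 7 of 8, held 75 reads and was at the 90.0 percentile of the list by −log10 p. The other, with its summit in exon 6, held 41 reads, at the 66.7 percentile. Of the first peak 57.3% of the length was exon 7, and of the second 42.7% was exon 6. Neither matched the HNF1 or HNF4 motif. FGA kept a site in its exon 5 of 5, with 29 and 14 reads, a ratio of 0.578 (0.282 to 1.13). Near FGG the shared site 6.22 kb upstream held 13 and 16 reads, a ratio of 1.47 (0.664 to 3.33). Among the 3 fibrinogen genes, FGB was the only one with C4-2B-only peaks inside the gene.

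The sites gained at the fibrinogen locus held 12 reads, 33.1 kb upstream of FGB, and 11 reads, in an intron of LRAT. The latter is shown because it was the 1 C4-2BER-only peak of the member windows with an HNF1-like match at 2 mismatches, which stands in capitals from 77 to 65 bases before the summit.
LRAT intron site, chr4:154637780-154637980, plus strand: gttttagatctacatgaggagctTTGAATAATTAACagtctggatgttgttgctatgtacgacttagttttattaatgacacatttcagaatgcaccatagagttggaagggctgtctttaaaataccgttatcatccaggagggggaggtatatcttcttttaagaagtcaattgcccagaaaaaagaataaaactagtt

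It was at the 15 percentile of the list. With 2 mismatches allowed, 3.05% of all gained peaks and 0.598% of all peaks found in C4-2B only held a match, and a single peak of 9 is no measure of a share.

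APOB encodes apolipoprotein B, the structural protein of very low density and low density lipoproteins. Its promoter was open at a low level in both lines, with a peak whose summit lay 975 bp downstream of the canonical TSS. It held 17 and 13 reads, at the 20.7 and 22.8 percentiles, and the ratio was 0.915 (0.409 to 2.0). Of the 7 parental peaks in the window 6 were shared, as were all 6 of the resistant line. All 6 ratios were below 1, with a median of 0.692. This lay within the quartiles of all distal shared summits, 0.598 and 1.10, whose median was 0.830. The interval of 1 of the 6 was below 1, at the site 26.4 kb upstream, with 42 and 18 reads and a ratio of 0.513 (0.278 to 0.91). APOB thus had 0 gained sites and was the only member in whose window C4-2BER opened no site of its own.

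APOH encodes apolipoprotein H, also named beta-2-glycoprotein I, a phospholipid-binding plasma protein. Its annotated TSSs spread over the gene. At the canonical TSS, whose promoter sequence is given above, neither line had a peak, while the most upstream TSS had one in both lines, with 22 and 23 reads and a ratio of 1.25 (0.666 to 2.35). The window was the richest in shared sites among the apolipoproteins, 8 of 9 in the parental and 8 of 10 in the resistant line. At 3 of them the interval of the ratio was below 1. These were an intergenic site 46.4 kb upstream with 103 and 50 reads, a ratio of 0.581 (0.406 to 0.822), an intergenic site 67.0 kb upstream with 59 and 25 reads, a ratio of 0.507 (0.304 to 0.822), and a site in CEP112 with 61 and 20 reads, a ratio of 0.392 (0.224 to 0.659).

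The highest site gained at any member lay in APOH, at chr17:66251485-66251769, in an intron 22.2 kb upstream of the canonical TSS. It held 16 reads, at the 39.4 percentile, with a forkhead and a C/EBP match. The other site gained in this window held 9 reads. The promoters of the neighbouring genes CEP112, which encodes a centrosomal protein, and PRKCA, which encodes protein kinase C alpha, had 79 and 57 reads and 96 and 91 reads, and both ratios had intervals that included 1. APOH thus had fewer reads in C4-2BER at 3 of its distal sites, and 2 low gained sites against 1 found in C4-2B only.

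TTR encodes transthyretin, a carrier of thyroxine and, with retinol-binding protein, of retinol. It had 11 and 5 peaks, of which 7 and 1 were found in the respective line only, the widest difference in counts among the loci. At the canonical TSS the peak held 49 and 12 reads, a ratio of 0.293 (0.142 to 0.559), and its percentile was 78.4 and 20.9. An alternative TSS upstream had a C4-2B-only peak of 74 reads, chr18:31575442-31576172, at the 88.1 percentile, with a forkhead match. The most upstream TSS had a peak of 25 reads in both lines, with its summit 35.8 kb from the canonical TSS and a ratio of 1.20 (0.659 to 2.17). The TTR starts thus differed from each other: the canonical one was lower in C4-2BER, another was without a peak there, and the most upstream one did not differ beyond counting error.

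Downstream of TTR the direction was mixed. The intergenic site 19.2 kb downstream of the TSS held 23 and 38 reads, a ratio of 1.98 (1.15 to 3.48). A C4-2B-only peak in an intron of B4GALT6 held 44 reads, at the 77.0 percentile. Of the other C4-2B-only peaks, 4 lay in DSG2, which encodes desmoglein 2, with 12 to 17 reads. The 1 gained site lay in TTR itself, 27.9 kb upstream of the canonical TSS, and held 13 reads.

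SERPINA1 encodes alpha-1-antitrypsin, the main inhibitor of neutrophil elastase in plasma. Its window had 14 and 9 peaks, and all 8 shared ratios were below 1, between 0.446 and 0.850 with a median of 0.650. This median, too, lay within the quartiles of all distal shared summits, 0.598 and 1.10. The intervals of 3 of the 8 ratios were below 1. These were the sites 23.3 kb upstream, with 51 and 19 reads and a ratio of 0.446 (0.249 to 0.768), 38.1 kb upstream, with 41 and 17 reads and a ratio of 0.496 (0.264 to 0.893), and 49.0 kb downstream, with 53 and 23 reads and a ratio of 0.519 (0.304 to 0.862). Peaks in C4-2B only reached the promoter region from both sides, with 21 reads at the upstream TSS and 23 reads 2.09 kb downstream of the canonical TSS. The nearest C4-2BER peak lay 17.0 kb downstream of that TSS and held 9 reads. Like APOB, SERPINA1 had no shared site with a ratio above 1. The local background used by the peak caller also differed here. At the site 49.0 kb downstream it was 7 and 3.16 reads, and the fold over it 6.75 and 5.77. At the sites 23.3 and 38.1 kb upstream the fold was 15.5 and 6.97, and 11.5 and 6.27. At the shared site with 25 and 14 reads the background was 6.38 and 2.60 reads. Its fold was 3.52 and 4.17, the only one higher in C4-2BER. How far the background shaped these ratios was not tested.

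The highest line-only peak of all the windows was the one 7.57 kb upstream of the canonical SERPINA1 TSS. It spanned chr14:94395751-94396843, held 116 reads with a −log10 q of 102, and was at the 96.9 percentile of the C4-2B list, and C4-2BER had no overlapping peak. Its summit region is shown for this reason, with a C/EBP match in capitals.
SERPINA1 upstream site, chr14:94396069-94396269, plus strand: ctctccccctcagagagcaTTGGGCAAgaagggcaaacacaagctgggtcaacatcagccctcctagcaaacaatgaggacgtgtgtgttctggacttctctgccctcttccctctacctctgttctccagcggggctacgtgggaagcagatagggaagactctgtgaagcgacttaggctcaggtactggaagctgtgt

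AMBP encodes the precursor of alpha-1-microglobulin and bikunin, a lipocalin and a protease inhibitor that are cut apart after synthesis. The window had 14 and 10 peaks, 4 and 1 of them line-only, and the AMBP promoter itself had none. The median ratio was 1.35, the highest of the 7 loci, ahead of 1.12 at the fibrinogen locus and 1.08 at TTR. The nearest site, 2.67 kb upstream of the canonical TSS, held 30 and 55 reads, a ratio of 2.19 (1.38 to 3.55). The next site, 4.38 kb upstream, held 78 and 96 reads, a ratio of 1.47 (1.08 to 2.01). The highest C4-2BER summit of that interval lay 3.88 kb upstream and held 109 reads. At the promoter of KIF12, which encodes a kinesin, 2 sites held 63 and 116 reads, a ratio of 2.20 (1.61 to 3.04), and 20 and 58 reads, a ratio of 3.47 (2.06 to 6.09). Both KIF12 sites fell in 1 C4-2BER interval, chr9:114098037-114099504, so that the 58 reads belong to a further summit of the same peak. The sites next to AMBP and KIF12 were thus higher in C4-2BER beyond counting error.

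The local background that the peak caller used moved with these reads, at 5.98 and 12.6 reads at the nearest site and 6.32 and 11.9 at the first KIF12 site. The fold over that background was 4.44 and 4.12 at the former and 8.74 and 9.06 at the latter. At the interval 3.88 to 4.38 kb upstream the highest summit of each line had a background of 5.70 and 12.6 reads and a fold of 11.8 and 8.08. These were different summits, further apart than the 200 bp used for pairing. Their folds can therefore not be set against the ratio given above for this site. The part of the background in the ratios was not tested. With 2 mismatches allowed, the C4-2BER summit of this nearest site also held an HNF1-like match. In the other direction, the site 35 kb upstream held 57 and 11 reads, a ratio of 0.231 (0.109 to 0.445), the lowest of the shared sites at all 7 loci. The 1 C4-2BER-only peak lay in an intron of AMBP and held 13 reads, and 4 C4-2B-only peaks in ZNF618 held 10 to 26 reads.

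**Figure D4:**
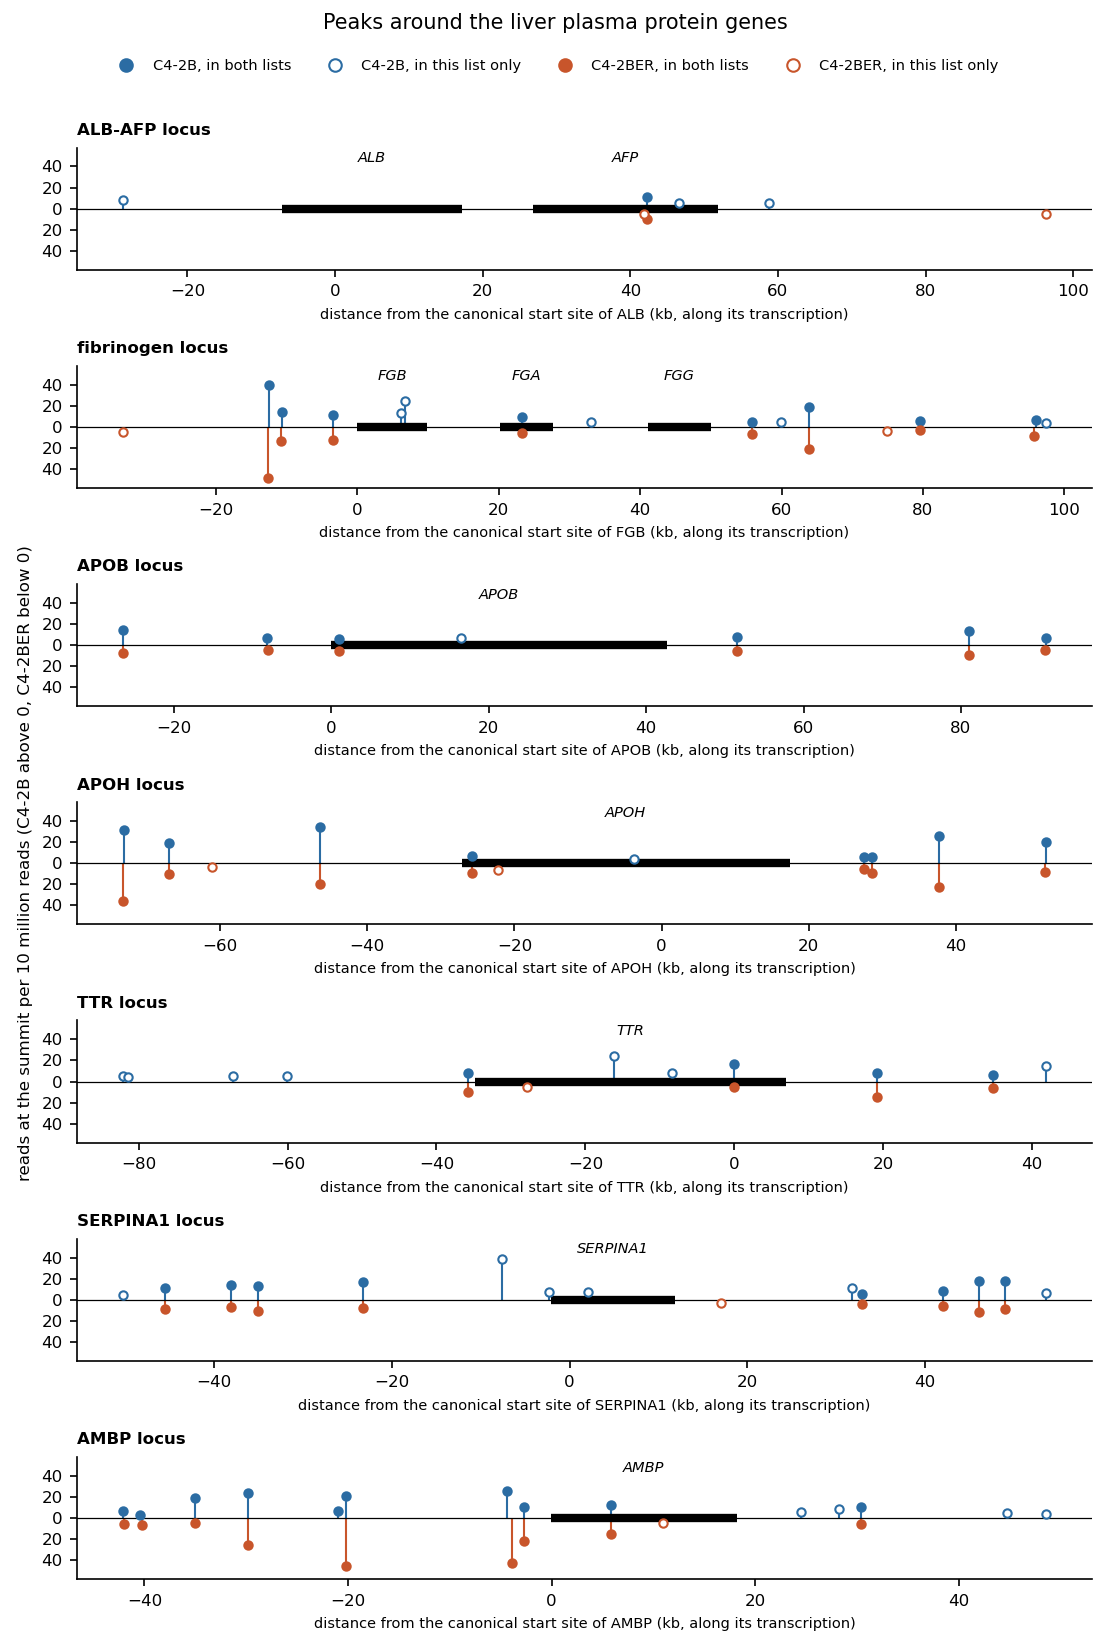
Peaks at the 7 loci by distance from the canonical start site of the gene named on each axis (kb), with depth-scaled C4-2B reads above 0 and C4-2BER reads below 0; filled points are shared peaks, open points line-only peaks, and black bars gene bodies. The tall open points at FGB, TTR and SERPINA1 have no C4-2BER counterpart, and the tallest C4-2BER points upstream of AMBP exceed those of C4-2B.

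To understand whether the hepatic motifs appeared at sites opened in the resistant line at all, matches within 100 bp of the summit were counted in the whole lists and then at the members. In the whole lists, with at most 1 mismatch, HNF1 matches stood at 7 of 52778 distal sites found in C4-2B only, or 0.0133% (0.00642 to 0.0274). At the gained distal sites it was 279 of 21562, or 1.29% (1.15 to 1.45), and the quotient of these shares was 97.6. The quotient rests on 7 matches and moved with the search: the shares were 0.0966% and 1.58% within 250 bp of the summit, and 0.621% and 3.15% with 2 mismatches. Shared distal peaks had them at 0.0464%. For HNF4 the shares were 0.301% and 0.775%, with a quotient of 2.57. Forkhead matches ran the other way, at 20.8% and 10.4%, as did androgen response elements at 2.90% and 0.246%. The letters of HNF1 were thus far more frequent at sites gained in C4-2BER than at sites found in C4-2B only. The motifs had been chosen with earlier results of these data known.

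**Figure D5:**
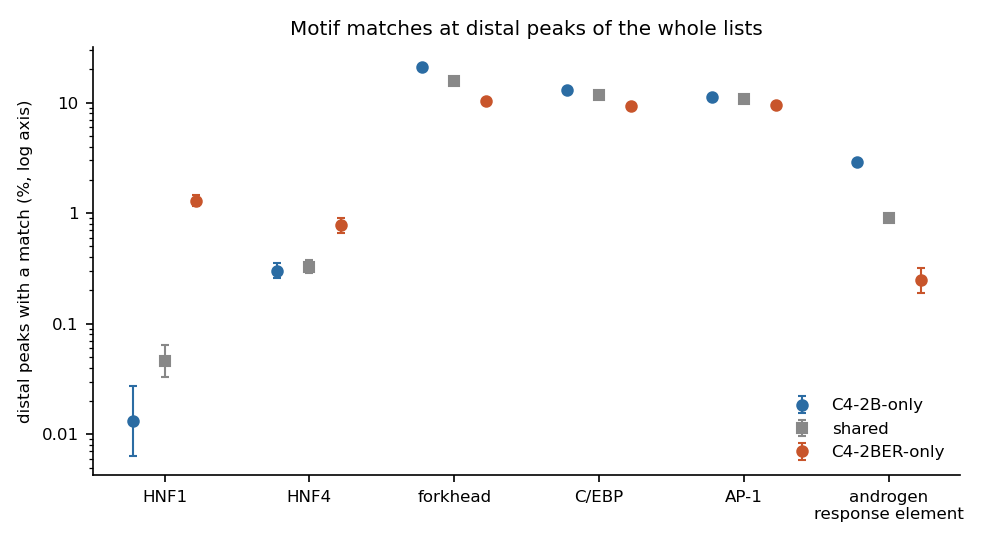
Share of distal peaks with a motif match within 100 bp of the summit (%, log axis), for the line-only and the shared peaks of the whole lists; bars are 95% Wilson intervals. HNF1 stands at 0.0133% of the C4-2B-only and 1.29% of the gained peaks, and the androgen response element at 2.90% and 0.246%.

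None of these gained sites lay at the liver genes. The 9 gained peaks in the member windows held 0 HNF1 and 0 HNF4 matches, as did the 27 peaks found in C4-2B only and the 45 shared ones. Among all gained peaks 1.23% held an HNF1 match. If a count of 0 is taken to allow up to 3, a rough limit and not a Wilson one, 0 of 9 allows a share of up to 33.3%. A shortage at the members was therefore not detectable with this number of peaks. Among the C4-2B-only peaks here, forkhead matches stood at 6 of 27, or 22.2% against 20.3% of the list, and C/EBP matches at 5, or 18.5% against 12.7%. Counted by window, 0 of 10 members had a C4-2BER-only peak with an HNF1 match, against 2.08% of all genes, and 0 of 10 had one with an HNF4 match, against 1.44%. The nearest C4-2BER-only peak with an HNF1 match lay 186 kb from the APOH TSS, 1620 kb from that of ALB, and 1652 to 12410 kb from those of the other members. For HNF4 the nearest lay 112 kb from AMBP, and for the other members at 2267 kb or more.

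The HNF1-match peak nearest to ALB belonged to GC, the vitamin D-binding protein gene of the albumin family. This C4-2BER-only peak lay at chr4:71783952-71784350, 0.182 kb from a GC TSS, and held 15 reads, at the 23.4 percentile. GC also had a higher promoter peak in both lines, with 31 and 38 reads. ALB and AFP, in contrast, had no promoter peak in either line.

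For comparison, 2 of the gained sites with both an HNF1 and an HNF4 match are shown, chosen after their values were seen among the highest C4-2BER-only peaks with an HNF1 match. The first held 65 reads, at the 91.5 percentile, 158 kb from the nearest TSS, of PTPRZ1, and its capitals run HNF1 straight into C/EBP, and then HNF4, from left to right. The second held 60 reads, at the 87.6 percentile, 62.8 kb from that of SOCS6, with HNF1 before HNF4.
Gained site nearest PTPRZ1, chr7:121714635-121714835, plus strand: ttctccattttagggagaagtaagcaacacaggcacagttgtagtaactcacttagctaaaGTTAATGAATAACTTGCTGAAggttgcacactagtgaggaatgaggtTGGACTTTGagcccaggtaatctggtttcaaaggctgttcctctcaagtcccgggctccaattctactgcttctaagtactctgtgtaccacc
Gained site nearest SOCS6, chr18:70376885-70377085, plus strand: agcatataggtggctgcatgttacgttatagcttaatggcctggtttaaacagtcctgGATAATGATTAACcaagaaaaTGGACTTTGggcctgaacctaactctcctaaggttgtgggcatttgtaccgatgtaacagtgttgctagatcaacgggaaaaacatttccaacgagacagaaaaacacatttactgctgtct

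Their HNF1 letters have at most 1 mismatch from the motif, whereas those of the ALB, AFP, FGA, FGB and APOH promoters have 2. Both are far above the 302 gained peaks with an HNF1 match as a whole, which had a median of 19 reads and a median percentile of 43.7. The gained sites at the members, with no such match, held 9 to 16 reads.

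Among the genes of the hepatic factors, the bile acid receptor gene NR1H4 had a promoter peak in C4-2BER only, with 18 reads. HNF4A, the gene of the main hepatic HNF4 protein, had a promoter peak in both lists, but these were separate intervals that did not overlap, chr20:44402671-44402959 in the parental line with 9 reads, at the 0.120 percentile, and chr20:44401047-44401524 in the resistant line with 25 reads, at the 56.1 percentile. FOXA1, the forkhead gene of prostate luminal cells, held 139 and 130 reads.

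The wider lists placed the 10 members beside their functional relatives. Of 63 other plasma protein genes, 25 had a promoter peak in both lines, 6 and 3 in the respective line only, and 29 in neither. As shares these were 39.7%, 9.52%, 4.76% and 46.0%, against 77.7%, 2.83%, 3.39% and 16% of all protein-coding genes. The most significant of those in C4-2B only was at LRG1, a leucine-rich glycoprotein, with 61 reads. KNG1, the kininogen gene, SERPINA3, the gene of alpha-1-antichymotrypsin, APOA4, an apolipoprotein gene, and SERPINA6, the gene of corticosteroid-binding globulin, had 20 to 22. The 3 in C4-2BER only were SERPING1, the C1 inhibitor gene, with 17 reads, SERPINF2, the gene of alpha-2-antiplasmin, with 13, and RBP4, the retinol-binding protein gene, with 8.

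Among 24 HNF1 target genes, 9 had a promoter peak in both lines and 12 in neither, 2 had one in C4-2B only, SERPINA1 and the glycogen synthase gene GYS2, and 1 was gained. The gained one was UGT1A1, the bilirubin-conjugating enzyme, with 26 reads, at the 66.9 percentile. The single-line shares of this list were 8.33% and 4.17%, against 2.83% and 3.39% of all genes. A C4-2BER-only peak with an HNF1 match was in the windows of 3 of the 24, or 12.5% against 2.08% of all genes. These were GC, with 15 reads, UGT1A1, with 10, and DPP4, a brush border peptidase gene, with 39 reads 17.4 kb from its TSS. The UGT1A1 match was not in the promoter peak named above. It stood in another peak, 31.3 kb from a UGT1A1 TSS, at the promoter of UGT1A3 and at the 9.40 percentile. Among 25 HNF4 target genes, 10 had a promoter peak in both lines and 11 in neither. In C4-2B only, 3 had one, SERPINA1, APOA4 and CYP7A1, the gene of the rate-limiting enzyme of bile acid synthesis, and in C4-2BER only, 1 had one. These single-line shares were 12% and 4%, against 2.83% and 3.39% of all genes. The members belong in part to these lists and contributed 0 to the gained counts. Both target lists had been chosen with earlier results of these data known.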

How the data were processed

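ATAC-seq of 4 libraries, 2 each of C4-2B and C4-2BER, was analysed from 2 merged peak lists. The authors trimmed reads with cutadapt, aligned them to hg38 with Bowtie2, kept a mapping quality of 10 or more, removed duplicates with Picard, merged replicates and called peaks with MACS2 (no model, shift 100, extension 200). With a shift of that sign the 200 bp window of a read starts 100 bp downstream of its cut site and is not centred on it, which can displace summits. The submitters' processing notes also name FastQC and bedtools 2.17, and the MACS2 version is not given in the sources used here. As deposited, each peak has a score, a fold over local background, a −log10 p, a −log10 q and the offset of its summit, all made by the authors' peak caller.

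Intervals with several summits were counted once, at the summit of highest −log10 p, and ranked by that −log10 p into percentiles. Reads at summits were recovered from fold and −log10 p, which succeeded for 100% of summits, and depth from the background floor of 2.24 and 1.87 reads with a genome size of 2700000000 bp. Genes and TSSs came from GENCODE release 44, windows reached 50 kb either side, and a promoter peak lay within 2000 bp of a TSS. Shared peaks overlapped by at least 1 bp, and summits within 200 bp were paired. Read ratios have exact binomial intervals and shares Wilson intervals, both at 95% and for counting error only. Motifs were searched on both strands within 100 bp of summits: HNF1, HNF4 (CAAAGTCCA), forkhead (TGTTTAC or TATTTAC), C/EBP (TTGCNNAA), AP-1 (TGANTCA) and the androgen response element. Methods were tested on simulated data, where 20000 peaks and 4000 intervals were returned as made in 100%. Python 3.11.15, numpy 2.4.6, pandas 2.3.3, scipy 1.17.1 and matplotlib 3.10.9 were used. The genes named were all members, neighbours with promoter peaks in the windows, and up to 5 genes per list and direction with a promoter peak in 1 line, by −log10 q. Members, gene lists and motifs were chosen with earlier results of these data known. Alternatives changed the peak threshold, list length, window, TSS set, motif distance, mismatches and GC weighting. Some genes of the lists are not reported here.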

Additional observations from a re-analysis of the deposited data

How the results depend on the processing

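No paired analysis was possible because the libraries of a line had been merged before peak calling, and for the same reason no replicate could be left out. Of 74 alternative values, 46 moved by less than the stated limits and 28 by more. With peaks of a −log10 q of at least 10 only, the windows held 47 and 27 peaks in C4-2B and C4-2BER, 0 of them C4-2BER-only, and 2 members had a C4-2B promoter peak. With the 50000 strongest peaks of each list they held 22 and 21, 11 of them C4-2B-only, and 1 member had a C4-2B promoter peak. With 10 kb either side they held 29 and 19, of which 15 and 5 were line-only. With 100 kb, C4-2BER had 81 peaks, 16 of them line-only. These settings hold fewer or more peaks by construction. C4-2B-only peaks were at least as many as C4-2BER-only peaks in 9 of 9 settings. The whole lists have the same order, with 56491 and 24651 line-only peaks, so this is not particular to the members. Scaling the C4-2B list to the C4-2BER depth, 1 of these settings, changed no count.

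For motifs at distal peaks, matching within 250 bp gave HNF1 shares of 0.0966% and 1.58%, HNF4 shares of 0.669% and 1.14% and forkhead shares of 30.3% and 20.1% for C4-2B-only and C4-2BER-only peaks. Among line-only peaks past a −log10 q of 10, the C4-2BER-only shares were 3.44% for HNF1, 1.45% for HNF4 and 10.9% for forkhead, and forkhead stood at 26.1% of C4-2B-only peaks. With GC content weighted as in shared peaks, forkhead stood at 17.1% of C4-2B-only peaks. With 2 mismatches, HNF1 stood at 0.621% and 3.15%, and 5 member promoters had a match in place of 0. The last setting for promoters was chosen after seeing the data, as were leaving out peaks at promoters of neighbouring genes, which gave 65 and 47 peaks, and scaling to a median ratio of 1, which gave 0.990. The cause of the changes in motif shares was not tested. A site missing from a list may lie below its threshold of 8 or 7 reads.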

Other observations

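Secreted protein genes of other glands gave single-line promoter peaks as well. Of 20 pancreatic acinar genes, which encode digestive enzymes and their partners, 4 had a promoter peak in C4-2BER only, 3 in C4-2B only, 4 in both and 9 in neither. The single-line shares were 15% in C4-2B only and 20% in C4-2BER only, against 2.83% and 3.39% of all protein-coding genes, and were not tested. The 4 in C4-2BER only were the elastase gene CELA2A with 29 reads, the trypsin inhibitor gene SPINK1 with 25, SYCN with 13 and CPB1 with 10. Those found in C4-2B only were CPA1 with 16 reads, CTRB2 with 22 and PRSS1 with 13. Of 10 genes for proteins secreted by the prostate, 6 had one in both lines, and PIP, with 18 reads, was the 1 gene with a promoter peak in C4-2B only. All 16 housekeeping genes had one in both.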
